A study of Homo sapiens with 6 samples.

Results

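The 10 claudin genes described here are CLDN1, CLDN3, CLDN4, CLDN6, CLDN7, CLDN9, CLDN10, CLDN12, CLDN16 and CLDN23. They were read by symbol from a raw count table of 26364 genes, and the set was chosen by gene family with the measured fall of the CLDN9 count under estradiol in view, so that values of that contrast are described here without a test. The RNA came from Ishikawa cells, an estrogen-responsive human endometrial adenocarcinoma line, and from 2 clones of it that carry a knockout of ETV4, a gene of the ETS family of transcription factors. Each of the 3 lines was treated with 0.1% DMSO, the vehicle, or with 10 nM 17β-estradiol (E2) and gave 1 library per treatment, so there were 2 knockout libraries and 1 parental library in each treatment. All cells had spent 5 days in hormone-depleted medium, and the labels give the treatment time as 8 h in the protocols and 1 h in the sample characteristics. The parental line stands alone on its side of the knockout comparison, so that a difference of ETV4 genotype and a difference of that line from derived clones cannot be told apart. Since nothing says that libraries came from repeated cultures, p-values measure only the spread between these libraries, which may be in part technical.

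Claudins are small membrane proteins with 4 transmembrane segments that form the strands of tight junctions between epithelial cells. Some members, such as CLDN1, CLDN3 and CLDN4, mainly seal the space between cells, whereas others form or modify paracellular ion pathways, as CLDN16 does for divalent cations in the kidney and CLDN10 for small ions. CLDN3, CLDN4 and CLDN7 are common in glandular epithelium and its carcinomas, and CLDN6 is best known from embryonic epithelium. Their cytoplasmic tails bind plaque proteins of the ZO family, which tie the strands to actin.

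Several of the genes are neighbours. In the RefSeq gene order CLDN16 and CLDN1 are adjacent on chromosome 3, CLDN3 and CLDN4 on chromosome 7, and CLDN9 and CLDN6 on chromosome 16. The promoters of CLDN1 and CLDN16 are shown because these neighbours were both lower in each clone than in the parental line and lower with E2 in every line, and that of CLDN4 because it belongs to an abundant member. Each run is the 250 bases before the RefSeq transcript start, 5′ to 3′ on the gene's strand, in build GRCh38.p14. Capitals mark the letters AGGTCA, the half-site of an estrogen response element, and AGGAAG, a PEA3 motif bound by ETV4 and other ETS factors, on either strand, so that they appear as TGACCT and CTTCCT where the match lies on the opposite strand. CLDN1 lies at chr3:190322447-190322696 on the minus strand, CLDN16 (the second of 2 RefSeq starts) at chr3:190387913-190388162 on the plus strand, and CLDN4 at chr7:73830746-73830995 on the plus strand.

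CLDN1: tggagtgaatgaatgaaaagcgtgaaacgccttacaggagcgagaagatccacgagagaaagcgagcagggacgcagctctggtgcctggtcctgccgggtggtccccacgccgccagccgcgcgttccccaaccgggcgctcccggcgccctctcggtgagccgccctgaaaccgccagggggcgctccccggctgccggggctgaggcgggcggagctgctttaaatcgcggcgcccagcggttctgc
CLDN16: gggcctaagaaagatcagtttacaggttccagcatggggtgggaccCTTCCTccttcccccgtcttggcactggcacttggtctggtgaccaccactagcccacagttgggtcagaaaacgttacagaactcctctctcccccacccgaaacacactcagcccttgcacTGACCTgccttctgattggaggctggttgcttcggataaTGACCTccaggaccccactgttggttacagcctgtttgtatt
CLDN4: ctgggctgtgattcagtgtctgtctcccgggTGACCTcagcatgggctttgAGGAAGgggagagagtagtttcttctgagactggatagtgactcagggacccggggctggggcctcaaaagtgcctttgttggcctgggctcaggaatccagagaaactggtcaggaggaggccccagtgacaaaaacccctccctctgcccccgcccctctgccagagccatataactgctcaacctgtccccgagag

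The CLDN1 window held none of these letters. It had a GC content of 68.8% and 28 CpG dinucleotides. The window at the other CLDN16 start held none either. The CLDN16 window shown held the half-site letters at -81 and -42 and the PEA3 letters at -204, and the CLDN4 window held them at -219 and -199, counted from the transcript start. Over 35116 RefSeq promoter windows of the same length, 12.1% held the half-site letters and 28.7% the PEA3 letters. The full palindromic estrogen response element, which overlaps the half-site, occurred in 0.0399% of windows and in none of those found for the claudins. Windows were found for 8 of the 10 genes. A match is a description of letters and says nothing of binding in these cells.

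The libraries held 28037392 to 36829479 counts, and 17755 to 18658 genes had at least 1 count. As a check of the labels, ETV4 stood at 19.7 and 28.4 CPM (counts scaled to library size) in the parental line with DMSO and E2 and at 2.42 to 3.41 CPM in the clones (fitted log2 difference -3.04, SE 0.209, edgeR quasi-likelihood adjusted p = 0.00868). PGR, the progesterone receptor gene and a classical estrogen target, rose with E2 (log2 3.94, SE 0.381, edgeR adjusted p = 0.00772). All 7 epithelial markers had at least 2 CPM, with a summed level of 2296 to 3205 CPM. Summed markers of stromal fibroblasts ran from 49.1 to 87.4 CPM (2 of 8 at 2 CPM or more), those of endothelium from 1.92 to 4.88 CPM (1 of 6) and those of blood cells from 0.956 to 1.64 CPM (0 of 6, with CD3E and HBB at 0 in every library).

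The claudins covered a wide range of abundance. Per kilobase of transcript, CLDN4 and CLDN7 led, with means over the 6 libraries of 64.0 CPM per kb (range 54.5 to 77.2) and 62.7 CPM per kb (49.5 to 72.6). Their ranges overlapped. CLDN3 followed at 42.4 CPM per kb (38.8 to 45.9), CLDN12, a member that lacks the usual PDZ-binding tail, at 22.3 (17.9 to 30.4) and CLDN1 at 8.58 (4.73 to 14.6), each without overlap with the next. CLDN9 had 1.74 CPM per kb (0.652 to 3.05), CLDN23 0.892 (0.788 to 1.02) and CLDN16 0.490 (0.146 to 1.17), and these neighbours in the order overlapped. Lengths are those of GENCODE v29 transcripts.

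CLDN6 and CLDN10 were at the edge of detection and did not pass the filter on low counts. CLDN6 had 3 to 8 counts in every library, or 0.101 to 0.240 CPM. CLDN10 had 2 counts in the clone 2 DMSO library and 0 in the other libraries, where a floor of 3 counts would be 0.0802 to 0.103 CPM and the upper end of the exact 95% Poisson interval is 0.0986 to 0.126 CPM. Both cover counting error only. The other 8 claudins were tested. In GENCODE v29, exons of CLDN12 overlap exons of CDK14 by 201 nt and of GTPBP10 by 347 nt on the same strand, and CLDN7 overlaps ELP5 by 38 nt on the opposite strand. How reads in those stretches were assigned is not given in the sources used here, so the values of both are uncertain to that extent.

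**Figure D1:**
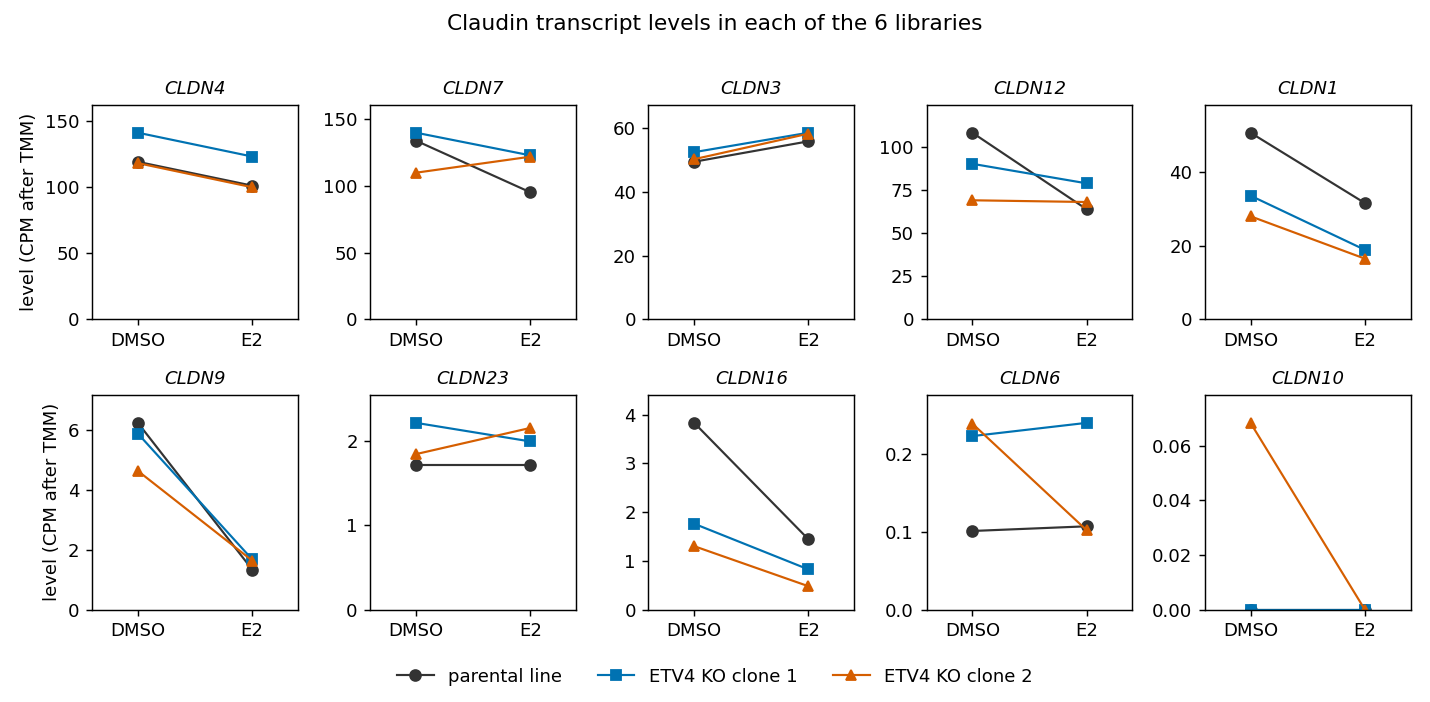
Level of each of the 10 claudins (CPM after TMM scaling, y axis, a separate linear scale from 0 in each panel) in DMSO and E2, with 1 point per library and a line joining the libraries of 1 cell line. CLDN9 falls in all 3 lines, while CLDN3 stays between 49.4 and 58.5 CPM; CLDN6 and CLDN10 lie below 0.3 CPM.

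CLDN9 was the claudin with the largest difference between E2 and vehicle, and this is the value for which it was chosen, so it is described without a test. In DMSO it stood at 6.25 CPM in the parental line (186 counts, exact 95% Poisson interval 5.39 to 7.22), at 5.89 CPM in clone 1 (211 counts) and at 4.64 CPM in clone 2 (136 counts). With E2 it stood at 1.34 CPM in the parental line (50 counts, interval 0.992 to 1.76), at 1.68 CPM in clone 1 (49 counts) and at 1.64 CPM in clone 2 (48 counts). Every E2 library lay below every DMSO library. As a ratio to DMSO, the E2 level was 0.214 for the parental line, 0.285 for clone 1 and 0.353 for clone 2, and the fitted log2 difference over the 3 lines was -1.85 (SE 0.235). In bulk RNA, fewer expressing cells and less RNA per cell cannot be told apart.

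CLDN16, the divalent cation channel component, came next. Its DMSO levels were 3.83 CPM in the parental line (114 counts), 1.76 CPM in clone 1 (63 counts) and 1.30 CPM in clone 2 (38 counts). Its E2 levels were 1.44, 0.823 and 0.478 CPM in the same order of lines (54, 24 and 14 counts). E2 was lower than DMSO in each line, with ratios of 0.377, 0.468 and 0.369, but the parental E2 library lay above the clone 2 DMSO library. CLDN1, a sealing claudin, had 50.7 CPM with DMSO and 31.6 CPM with E2 in parental cells, 33.6 and 18.9 CPM in clone 1, and 28.0 and 16.5 CPM in clone 2. Its ratios of 0.623, 0.562 and 0.587 were close to each other, and the parental E2 library overlapped the clones' DMSO libraries.

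The abundant claudins differed less between treatments. CLDN4 was lower with E2 in each line (ratios 0.851, 0.873 and 0.847). Parental cells had 119 CPM with DMSO and 101 CPM with E2, clone 1 had 141 and 123 CPM, and clone 2 had 118 and 99.8 CPM. Scaled by total counts instead of TMM, the parental log2 difference of CLDN4 was -0.05 in place of -0.23. CLDN3 was higher with E2 in each line (ratios 1.13, 1.12 and 1.16), with 49.4 to 52.4 CPM in DMSO and 55.8 to 58.5 CPM in E2, so that its treatment groups did not overlap. CLDN7, CLDN12 and CLDN23 did not keep 1 size of difference across lines. CLDN7 fell short of its DMSO level in the parental line (134 and 95.3 CPM) and in clone 1 (140 and 123 CPM) but exceeded it in clone 2 (110 and 122 CPM). CLDN12 had 108 and 63.7 CPM in the parental line, 90.0 and 78.7 CPM in clone 1 and 68.9 and 67.9 CPM in clone 2. CLDN23 had 1.71 CPM in both parental libraries and 1.84 to 2.21 CPM in the clones.

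Without the parental line the fitted CLDN9 log2 difference was -1.67. The log2 difference was at or below -1 in all 3 lines for 2 claudins, CLDN9 and CLDN16 (0.378% of all genes). E2 was lower in all 3 lines for 5 claudins (25.2% of all genes) and higher in all 3 for 1 (27.8%). Every E2 library lay below every DMSO library for 1 claudin (10.7%), and above for 1 (13.5%). The 8, which include CLDN9, had median log2 differences of -0.59 (parental), -0.19 (clone 1) and -0.13 (clone 2), beside 0.00, -0.00 and 0.01 for all genes. The 7 other claudins tested had medians of 0.06, 0.08 and 0.28 in the same order of lines, so a fall was not shared by the family.

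**Figure D2:**
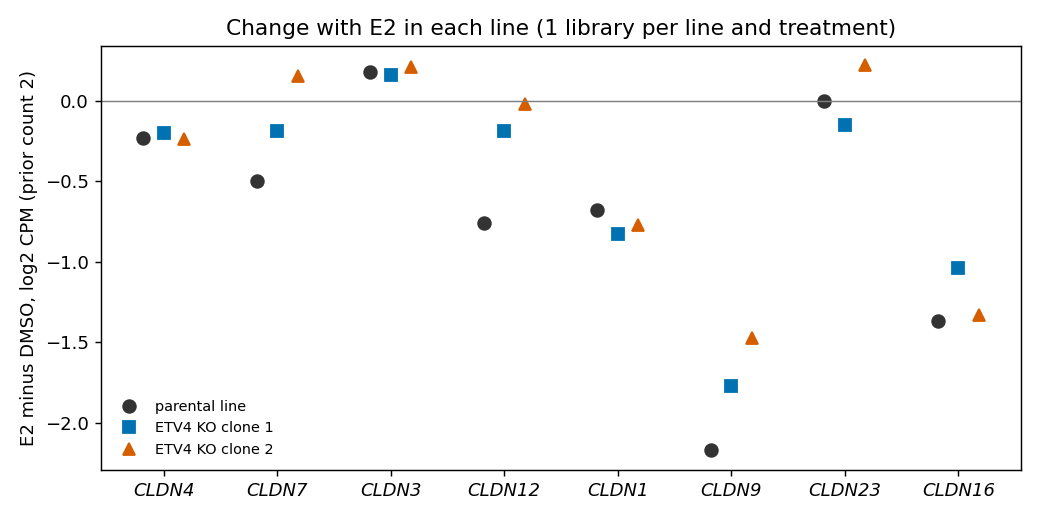
Log2 ratio of E2 to DMSO (y axis, log2 CPM with a prior count of 2) for the 8 tested claudins, 1 point per line, each from 1 library per treatment. CLDN9 and CLDN16 lie at or below -1.04 in all 3 lines, and CLDN12 spreads from -0.76 in the parental line to -0.02 in clone 2.

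The second comparison asked whether claudin transcripts differed between the ETV4 knockout clones and the parental line. By edgeR's quasi-likelihood test none of the 8 claudins reached the 0.05 threshold after adjustment, where 0.327% of all genes did. At an unadjusted p under 0.05 there were 2 (CLDN1 and CLDN16), where 11.4% of all genes were. The median fitted log2 difference of the 8 was 0.03, beside 0.01 for all genes.

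CLDN1 and CLDN16 were the 2 claudins lower in both clones in each treatment, as were 16.0% of all genes, and both were also lower with E2 in every line, as were 6.32%; no claudin had every knockout library below both parental ones (7.82%), and 2, CLDN3 and CLDN23, were above in each treatment (18.1%). In DMSO, CLDN1 stood at 30.8 ± 3.90 CPM in the clones (SD, n = 2) and 50.7 CPM in the parental line, and in E2 at 17.7 ± 1.69 CPM (SD, n = 2) and 31.6 CPM. The fitted log2 difference was -0.78 (SE 0.136, edgeR adjusted p = 0.101). CLDN16 stood at 1.53 ± 0.326 CPM in the clones (SD, n = 2) and 3.83 CPM in the parental line in DMSO, and at 0.651 ± 0.244 CPM (SD, n = 2) and 1.44 CPM in E2, a fitted log2 difference of -1.24 (SE 0.307, edgeR adjusted p = 0.227). For both genes the clone 1 DMSO library lay above the parental E2 library, so the genotypes overlapped across treatments. The call depended on the fit. For CLDN1 the adjusted p was 8.0e-04 by DESeq2 and 0.0446 by edgeR after a GC and length correction. Those fits called 454 and 121 genes, where the main fit called 51. It was 0.137 by limma-voom with line as a random effect and 0.102 by limma-voom without a block. Under the other scaling and filters the edgeR adjusted p was 0.101 to 0.108. For CLDN16 it was 0.083 by DESeq2. With clone 1 or clone 2 left out, 1 line remains per genotype. The log2 differences were then -0.91 and -0.67 for CLDN1 and -1.59 and -0.99 for CLDN16.

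The other 6 claudins did not pass at an unadjusted p of 0.05 either. CLDN9 had a fitted knockout difference of 0.00 on the log2 scale (SE 0.234, edgeR adjusted p = 0.995). Its clones lay below the parental line in DMSO (log2 -0.09 and -0.42) and above it in E2 (0.32 and 0.28). CLDN23 was the 1 claudin with every knockout library above both parental libraries (8.53% of all genes). Its fitted difference was 0.26 (SE 0.247, edgeR adjusted p = 0.646), from 51 to 79 counts per library. In DMSO the exact 95% Poisson intervals overlapped, at 1.39 to 2.41 CPM in clone 2 and 1.28 to 2.25 CPM in the parental line. CLDN4 (0.13), CLDN7 (0.12), CLDN3 (0.06) and CLDN12 (-0.14) had edgeR adjusted p of 0.695, 0.751, 0.814 and 0.756.

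**Figure D3:**
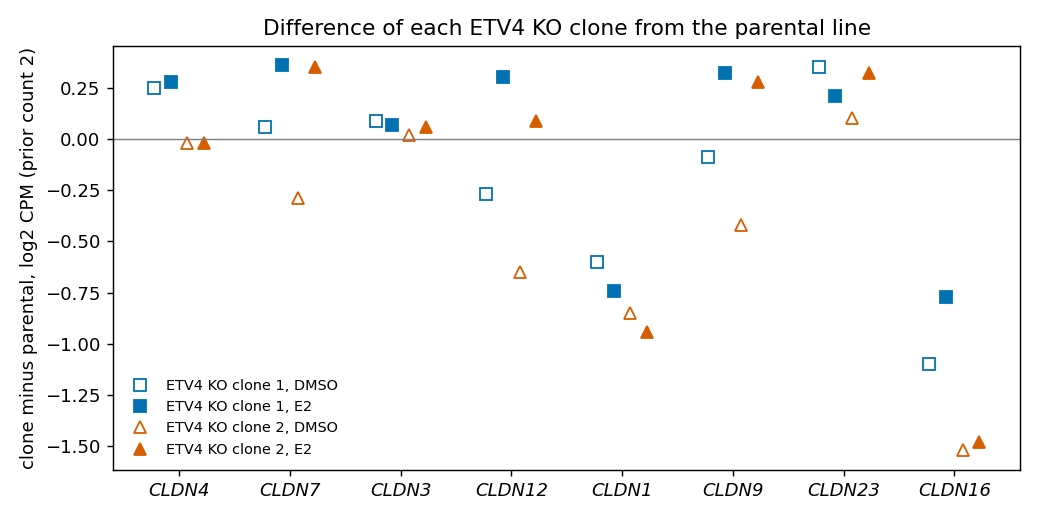
Log2 difference of each ETV4 knockout clone from the parental line (y axis, log2 CPM with a prior count of 2) for the 8 tested claudins, open symbols DMSO and filled symbols E2. All 4 points of CLDN1 lie between -0.94 and -0.60 and all 4 of CLDN16 between -1.52 and -0.77, while those of the other claudins lie on both sides of 0 or between 0.02 and 0.35.

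The third comparison asked whether the E2 difference itself depended on ETV4 genotype. In edgeR's quasi-likelihood test without a block, no claudin and no gene of the 15611 passed (0%). At an unadjusted p under 0.05 there was no claudin, where 7.62% of all genes were, and DESeq2 called 29 genes. The largest interaction among the claudins was that of CLDN12, 0.65 on the log2 scale (SE 0.306, edgeR adjusted p = 0.617), that is, a smaller difference in the clones. With line as a block it was 0.66 (SE 0.229, edgeR adjusted p = 0.0324), where 15.8% of all genes passed and 8.90% passed as higher. The CLDN12 transcript has a GC content of 38.1%, and the fifth of genes with the lowest GC content had median E2 differences of -0.29 (parental), -0.04 (clone 1) and 0.04 (clone 2). With a GC and length correction in the blocked fit, the CLDN12 interaction was 0.42 (SE 0.157, edgeR adjusted p = 0.0751). CLDN9 had an interaction of 0.56 (SE 0.483, edgeR adjusted p = 0.715) and CLDN7 of 0.47 (SE 0.285, edgeR adjusted p = 0.630). The other 5 lay between -0.12 and 0.18. Each blocked fit, with or without that correction, has 1 residual degree of freedom, too few to measure a gene's own spread well. Without the correction the fit takes its spread wholly from a trend over all genes. Its p-values therefore do not measure each gene's own spread between libraries.

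Between the clones, the fitted difference over both treatments was below 0 (lower in clone 2) for all 8 claudins, with a median log2 difference of -0.22 beside 0.01 for all genes. In the E2 libraries alone CLDN23 was higher in clone 2 (2.15 against 1.99 CPM, log2 0.11) and CLDN7 differed by -0.01. None passed an adjusted p of 0.05 in edgeR's test, where 18.3% of all 14881 genes did. At an unadjusted p under 0.05 there were 2 (CLDN4 and CLDN12), where 30.4% of all genes were. The differences ran from -0.55 for CLDN16 (SE 0.333, edgeR adjusted p = 0.257) to -0.03 for CLDN3. That fit has 1 residual degree of freedom and takes its spread wholly from a trend over all genes. Its p-values therefore do not measure each gene's own spread between libraries.

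Tight junction genes outside the 10 were counted from lists. None of the 7 other claudins tested of 14, the 12 other membrane proteins, the 24 plaque and polarity proteins or the 16 partners and regulators tested of 18 passed the knockout test. Among them 1 passed the E2 test, where 1.13% of all genes did. That gene was PRSS8, a membrane-anchored serine protease of epithelia, which fell with E2: 92.0 CPM became 50.9 CPM in parental cells, 99.4 became 57.3 CPM in clone 1, and 103 became 56.3 CPM in clone 2 (log2 -0.84, SE 0.104, edgeR adjusted p = 0.0200).

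TJP1, which encodes the plaque scaffold ZO-1, stood at 135 and 175 CPM in the parental line with DMSO and E2 and at 192 to 228 CPM in the clones (knockout log2 0.45, SE 0.154, edgeR adjusted p = 0.360). Every knockout library lay above both parental ones, as for 8.53% of all genes. OCLN, the tight junction membrane protein occludin, had a knockout difference of -0.27 (SE 0.159, edgeR adjusted p = 0.516). The medians of the plaque and polarity list were 0.17 for the knockout and -0.32 for the interaction, beside 0.01 and -0.04 for all genes. Its median E2 difference was 0.31 (parental), -0.01 (clone 1) and -0.15 (clone 2), and that of the 5 stromal fibroblast markers tested was 0.61, -0.04 and -0.38 in the same order. Of the markers, COL1A1 (stromal, 1 of 5) and MUC1 (epithelial, 1 of 7) also passed the blocked interaction test as lower; their part in the plaque result was not tested. With the block, 6 of its 24 members passed the interaction test as lower (CGN, CGNL1, TJP3, ARHGEF18, MAGI1 and AMOTL2), where 6.92% of all genes did. With the GC and length correction as well, CGN, which encodes cingulin, passed, as did 4.16% of all genes as lower, and the other 5 had edgeR adjusted p of 0.0848 to 0.496. CLDN15, a cation-pore claudin outside the 10, and WNK4, a kinase that acts on claudins, also passed as lower in the blocked fit (log2 -1.21 and -1.20). Without the block neither passed (log2 -1.23 and -1.20). The CLDN15 transcript has a GC content of 60.2%. The fifth of genes with the highest GC content had median E2 differences of 0.34 (parental), 0.09 (clone 1) and 0.00 (clone 2). Values of CLDN15 and WNK4 with the GC and length correction are not reported here.

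**Figure D4:**
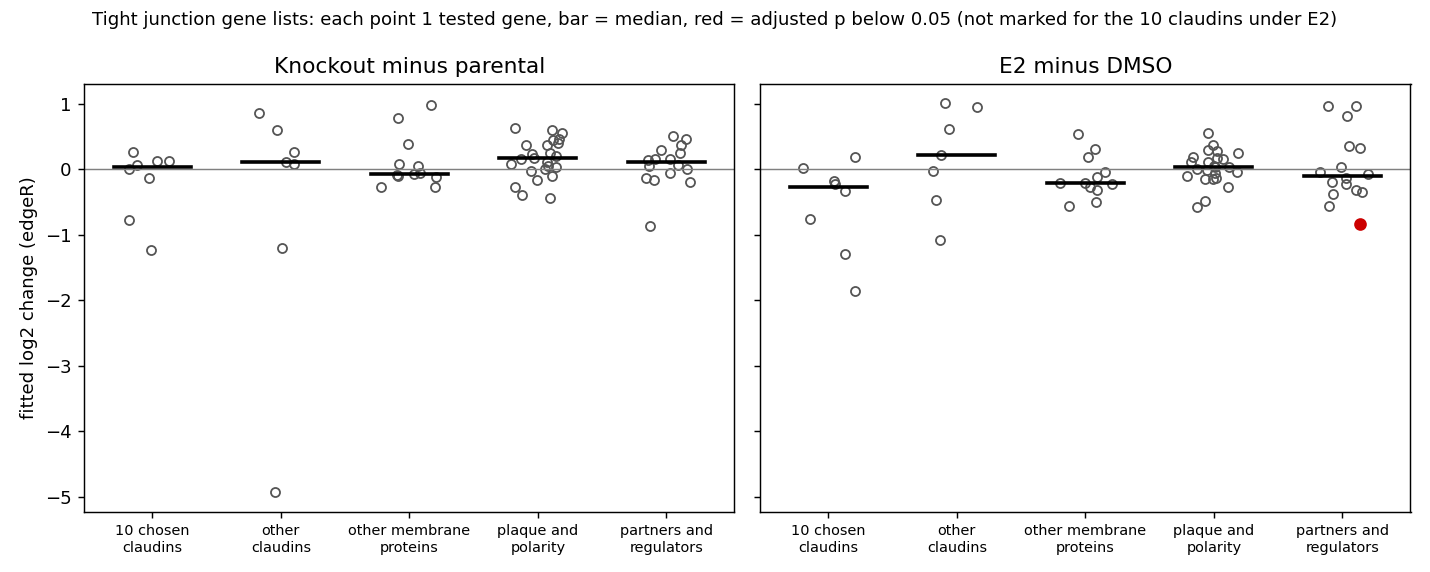
Fitted log2 difference (edgeR, y axis) of each tested gene in 5 tight junction lists, for knockout minus parental on the left and E2 minus DMSO on the right; bars are list medians and red points have an adjusted p below 0.05. No point is red for the knockout and PRSS8 is red for E2, where the 10 claudins are not marked because the choice of the set used that contrast; the point at -4.93 is CLDN8, singled out after its values were seen, with 0 or 1 count in each clone library.

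Between the clones, 6 of the 24 plaque and polarity genes were higher in clone 2, where 10.2% of all genes were. They included CGN (log2 0.94, SE 0.130), TJP3, AMOTL2, ARHGEF18 and MAGI3. These calls rest on an edgeR adjusted p below 0.05 in the fit between the clones, which has 1 residual degree of freedom. Its p-values do not measure each gene's own spread between libraries. CGN stood at 23.8 and 21.4 CPM in clone 1 and 50.1 and 37.1 CPM in clone 2. In the other lists CLDN15, BVES, OVOL1 and ELF3 were higher in clone 2, and ILDR2 and SNAI1 were among those lower (8.08% of all genes were lower). OVOL1 and ELF3 encode epithelial transcription factors, and SNAI1 encodes a repressor of epithelial genes.

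By the root mean square difference of centred log2 CPM over the 6 libraries, the genes most like CLDN9 among 12366 with a mean of at least 2 CPM were TCP11L2 (0.235), MIR100HG (0.278), SCEL (0.287), LRRC17 (0.287) and CASQ1 (0.308). SCEL, which encodes the cornified envelope protein sciellin, stood at 4.24, 4.19 and 3.52 CPM in DMSO (parental, clone 1, clone 2) and 1.63, 1.17 and 1.16 CPM in E2. LRRC17 was more abundant, at 78.8, 57.7 and 39.2 CPM in DMSO and 20.1, 23.1 and 23.2 CPM in E2. All share the 6 libraries and the treatment contrast with CLDN9, so likeness is a description only.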

How the data were processed

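RNA was measured in 6 libraries of Ishikawa cells, an established line. The authors deposited a table of raw counts per gene and a table of normalized signal. Per the submitters' processing notes, HISAT2, SAMtools, Subread, DESeq2 and build hg19 were used; annotation and use of strand are not given in the sources used here. Poly(A)-selected libraries came from a stranded kit, per the labels' protocols. The deposited normalized signal equalled the counts divided by size factors of 0.926 to 1.19 and was not tested. Column names DMOS and ER were read as DMSO and E2. The members, lists and tests were chosen with earlier results of these data known.

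Counts were scaled by TMM (giving CPM) and tested with edgeR 4.0.16 (R 4.3.3) by its quasi-likelihood test, with filterByExpr (15611 of 26364 genes, 14881 for the clones), Benjamini-Hochberg adjustment over all genes and a threshold of 0.05. Knockout and E2 effects came from 1 model of treatment and genotype. Per-line log2 ratios used a prior count of 2, and SE is the log2 difference over the root of F. DESeq2 1.42.0, limma-voom 3.58.1, other filters and scalings, GC and length correction (93.7% of tested genes had values), a line block and left-out lines were alternatives. Pairing rests on the shared cell line: the clone difference in DMSO and in E2 correlated across 15611 genes (r = 0.626), and genes are not independent replicates. The scripts were tested on simulated data.

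Genes named outside the 10 passed a test in a list, or were TJP1, OCLN, ETV4, ESR1 or PGR, or were the 5 nearest to CLDN9, except CLDN8 and CLDN11, chosen after their values were seen; some results of the lists are not reported here. Transcript length, GC content and exon overlap came from GENCODE v29 and promoters from RefSeq, both GRCh38, not the build of the counts, and only names were matched. RefSeq promoters matched 8 of 10 symbols.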

Additional observations from a re-analysis of the deposited data

Results flagged for a closer look

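The interaction of E2 with genotype for CLDN12 was 0.66 on the log2 scale with line as a replicate block, a test of the difference between lines that passed the threshold (edgeR adjusted p = 0.0324), as it did for 15.8% of all genes. Without the block the edgeR adjusted p was 0.617, and from 0.578 to 0.773 under the other scaling and filters, DESeq2 gave no adjusted p, and it was 0.0751 with the GC and length correction in the blocked fit. The parental line supplies 1 library per treatment here.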

How the results depend on the processing

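Median-ratio size factors and both filters kept the counts of genes called within 1.5 times in every comparison. The knockout count of 51 genes became 454 by DESeq2 and 121 with the GC and length correction, and ran from 631 to 996 with a clone left out; by limma-voom it was 57 without a block and 46 with the replicate block (line as a random effect). The E2 count of 176 became 1115 by DESeq2, 419 with the GC and length correction, 384 with the replicate block and 1663 with both, and ran from 49 (without the parental line) to 3353 (without clone 2). With the block and without the parental line, a fit chosen after seeing the data, it was 2227. The interaction count of 0 became 29 by DESeq2, 2470 with the replicate block and 1587 with the block and the GC and length correction. The count between the clones, 2723, became 1024 by DESeq2 and 104 with no treatment term. The cause was not tested. Signs turned for the knockout difference of CLDN4 (-0.03 without clone 1, 0.26 without clone 2) and CLDN12 (-0.30 without clone 1, 0.02 without clone 2), and for the interaction of CLDN3 (-0.03) and CLDN4 (-0.02) with at least 10 counts in every library and of CLDN16 (-0.08) with the block and GC and length correction. With no test, signs also turned for the knockout difference of CLDN7 in DMSO alone (-0.12) and CLDN12 in E2 alone (0.20), for the clone difference of CLDN23 in E2 alone (0.11), and for the interaction of CLDN4 (-0.01 without clone 1), CLDN3 (-0.02 without clone 2) and CLDN23 (-0.14 without clone 2). The CLDN23 E2 difference turned without clone 2 (-0.08) and with the GC and length correction (-0.01). Scaling by total counts instead of TMM moved 5 log2 differences with E2 beyond counting error, all in the parental line. They were CLDN1 (-0.68 to -0.50), CLDN3 (0.18 to 0.35), CLDN4 (-0.23 to -0.05), CLDN7 (-0.50 to -0.32) and CLDN12 (-0.76 to -0.59). The TMM factor of the parental DMSO library was 0.899. Beyond the interaction of CLDN12, the block changed no knockout or interaction call of the 8 claudins tested. Leaving out a line from the interaction, or a library from the clone comparison, leaves no test. Depth limits CLDN6 and CLDN10. It also limits CLDN16 (14 to 114 counts), CLDN23 (51 to 79 counts) and, in the E2 libraries, CLDN9 (48 to 50 counts). With a minimum mean of 1 or 5 CPM, 4 and 1 of the 5 genes nearest to CLDN9 were shared.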

Other observations

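Among claudins outside the 10, 2 stood apart between clones and parental line and were chosen after their values were seen. CLDN11, the claudin of myelin and of the testis barrier, had 5.65 and 5.88 CPM in the parental line with DMSO and E2, and 2.51, 3.12, 1.98 and 2.43 CPM in the clones. Its fitted knockout log2 difference was -1.21 (SE 0.226, edgeR adjusted p = 0.122). Whether it passed depended on the fit. Because CLDN11 was picked by this same difference, no other fit is used as support for it. CLDN8 had 17 and 7 counts in the parental line with DMSO and E2 and 0, 0, 0 and 1 in the clones. It passed the filter on low counts only through the parental DMSO library, so its counts are described without a test.

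CLDN15 had 3.87 and 13.3 CPM in the parental line with DMSO and E2, 7.12 and 11.6 CPM in clone 1 and 11.6 and 16.0 CPM in clone 2, so its level with E2 was higher in each line (log2 0.95, SE 0.327, edgeR adjusted p = 0.196).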
